A study of Xenopus laevis with 6 samples.

Results

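The genes irx4, dmrta2, elavl4 and crygbl.4, known for roles in neural tissue or the lens, were examined in Xenopus laevis animal caps, explants of ectoderm taken from early embryos. All probe sets whose annotated symbol is one of these names were taken, leaving aside the endings .L and .S, which name the 2 copies (long and short chromosome) of a gene in this duplicated genome. They were 5 of the 15491 probe sets tested and 4 of the 6505 genes named by a single symbol, 1 each for irx4.L, dmrta2.S and elavl4.L and 2 for crygbl.4.S. The genes were chosen by their log2 values on these same arrays, as being high in Sox17beta caps and hardly changed in Mixer caps. Their levels and differences over the groups are therefore a description, and none of them is tested. The 6 Affymetrix arrays formed 3 groups of 2, namely caps from embryos injected with Sox17beta, an HMG-box transcription factor, caps from embryos injected with Mixer, a paired-type homeodomain transcription factor, and caps of uninjected embryos. All were of mixed sex and of gastrula stage 10.5. The sources used here do not give the amount injected, the strain or the clutches. The p-values of other genes reflect nothing but array-to-array spread, which may be technical.

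Sox17 and Mixer proteins are known as regulators of endoderm formation, whereas animal caps left alone form epidermis. When BMP signalling is low, ectoderm can take a neural fate instead, and at the border of the neural plate it forms placodes, one of which gives rise to the lens. Iroquois homeodomain factors such as Irx4 pattern the neural plate and, in chick and mouse, the heart. Dmrta2 is a DM-domain transcription factor of the forebrain and olfactory region, Elavl4 (HuD) is a neuronal protein that binds and stabilises AU-rich messenger RNAs, and gamma-crystallins are structural proteins of lens fibre cells.

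Values are log2 RMA signals per probe set. Array medians over the tested probe sets lay between 6.5 and 6.55, and 48.5% to 60.7% of probe sets on an array exceeded the highest of 44 control probe sets for bacterial genes and artificial tags, taken as controls for absent transcripts. Sox17beta replicate 1 stood apart, with the highest such control at 6.62, where the other 5 arrays had 5.90 to 6.09, and with the lowest share above it. The injected gene checks the labels. The _at probe set of sox17b.1.S read 13.11 and 13.90 in Sox17beta caps, 9.63 and 9.33 in Mixer caps, and 6.91 and 6.70 in uninjected caps. Whole explants were measured, so fewer cells of a type and less RNA per cell cannot be told apart.

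The probe set of irx4.L (Xl.12086.1.S1_at) read 8.12 and 8.68 in Sox17beta replicates 1 and 2, 4.85 and 4.57 in Mixer caps, and 4.56 and 4.52 in uninjected caps. Both Sox17beta arrays lay far above the other 4, and the Mixer arrays stayed beside the uninjected ones. The group mean was 8.40 ± 0.40 in Sox17beta caps and 4.54 ± 0.03 in uninjected caps (SD, n = 2 each), a difference of 3.86. Mixer and uninjected caps differed by 0.17. All 4 Mixer and uninjected values were below the highest absent control of their array, so on the linear scale only a bound can be given. Set against that control, irx4.L was at least 5.48-fold higher in Sox17beta than in uninjected caps.

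The probe set of dmrta2.S (Xl.15931.1.A1_at) read 6.67 and 7.64 in Sox17beta caps, 4.56 and 4.35 in Mixer caps, and 4.06 and 3.93 in uninjected caps. The Sox17beta arrays were again above all others, and here the Mixer arrays were also above both uninjected arrays. The difference was 3.16 between Sox17beta and uninjected caps and 0.46 between Mixer and uninjected caps. In Sox17beta replicate 1 the value of 6.67 barely passed that array's highest absent control of 6.62. The bound over uninjected caps was at least 2.31-fold, but it counts that value in full and so rests in part on a reading near background.

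The probe set of elavl4.L (Xl.1036.2.S1_a_at, where the ending _a_at marks a set that reads alternative transcripts of 1 gene) gave 5.01 and 7.19 in Sox17beta caps. It gave 3.54 and 3.66 in Mixer caps and 3.61 and 3.63 in uninjected caps. The Mixer and uninjected arrays all lay between 3.54 and 3.66, while the Sox17beta arrays were 2.18 apart. Sox17beta and uninjected caps differed by 2.48 on average, by 1.40 in replicate 1 and by 3.56 in replicate 2, and Mixer and uninjected caps by -0.02. The value in Sox17beta replicate 1 was below the highest absent control of that array. That value enters the Sox17beta mean, so no lower bound in folds over uninjected caps is given for elavl4.L.

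The gene crygbl.4.S was read by a pair of probe sets that disagreed in part. The one ending _at (Xl.21441.1.S1_at) gave 6.42 and 8.42 in Sox17beta caps, 3.39 and 3.51 in Mixer caps, and 3.52 and 3.56 in uninjected caps. Sox17beta caps were 3.88 above uninjected caps, by 2.90 in replicate 1 and 4.86 in replicate 2, and Mixer caps differed from uninjected caps by -0.09. Only the Sox17beta replicate 2 value exceeded its highest absent control, so no lower bound in folds over uninjected caps is given for this probe set. The other probe set (Xl.954.1.S1_x_at) has an ending that marks probes able to match further transcripts. It read 8.77 and 9.30 in Sox17beta caps, 5.88 and 5.82 in Mixer caps, and 6.45 and 7.0 in uninjected caps. It was thus above the absent controls in uninjected caps, was higher in Sox17beta caps by 2.31 or 4.96-fold, and read lower in Mixer caps, where both values were below the highest absent control of their arrays (measured difference -0.88). The 3 groups did not overlap for this probe set, though the place of the Sox17beta arrays was fixed by the choice of genes. The share of all probe sets with both Mixer arrays below both uninjected arrays was not counted. The reference gene table lists 10 numbered crygbl genes in this species, so signal shared between copies is uncertain here, above all for the second probe set.

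**Figure D1:**
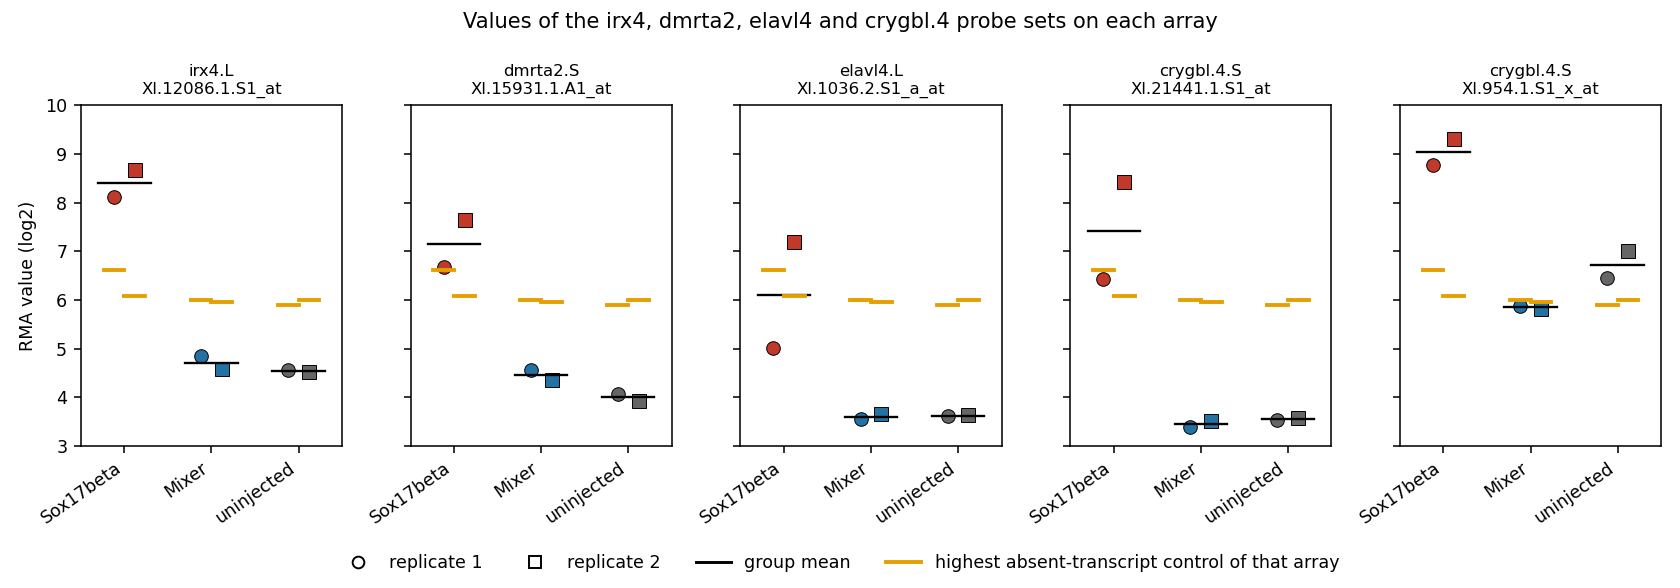
RMA values (log2, vertical axis) of the 5 probe sets on each of the 6 arrays, with Sox17beta, Mixer and uninjected caps from left to right. Circles are replicate 1, squares replicate 2, black bars group means and orange bars the highest absent control of each array. Both Sox17beta arrays lie above the other 4 arrays in every panel, and the Sox17beta arrays are 2.18 apart for elavl4.L and 2.0 apart for the first crygbl.4.S probe set.

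In all 5 probe sets both Sox17beta arrays were above the 4 other arrays, a pattern seen in 10.3% of all tested probe sets and fixed here by the choice of genes. A difference from uninjected caps of at least 2.31, the smallest of the 5, was reached by 0.181% of probe sets, and one of at least 1 by 1.18%. Against Mixer caps, where all 5 were below the highest absent control, the measured differences were 3.97 for crygbl.4.S (_at), 3.69 for irx4.L, 3.19 for the second crygbl.4.S probe set, 2.70 for dmrta2.S and 2.5 for elavl4.L. In Mixer caps, 2 of the 5 probe sets, irx4.L and dmrta2.S, had both arrays above both uninjected arrays, where 12.6% of all probe sets did. Those comparisons share arrays and are not independent of each other.

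For irx4.L, dmrta2.S, elavl4.L and the first crygbl.4.S probe set the replicates were further apart in Sox17beta caps than in either other group. Their Mixer and uninjected values were all below the highest absent control, and the share of all probe sets with this pattern was not counted. For the second crygbl.4.S probe set the gap was 0.53 in Sox17beta caps and 0.55 in uninjected caps. All 5 probe sets were higher in Sox17beta replicate 2 than in replicate 1, as were 44.1% of all probe sets, and both probe sets of the injected sox17b.1.S were too, by 0.79 (_at) and 0.62 (_s_at). The gap was 0.56 for irx4.L, 0.97 for dmrta2.S, 2.18 for elavl4.L, and 2.0 for the first crygbl.4.S probe set. A gap of 2.18 or more in either direction occurred in 0.123% of probe sets and one of 2.0 or more in 0.194%, against a median absolute gap of 0.27. The part that array quality or the level of the injected gene had in these gaps was not tested. Leaving out Sox17beta replicate 1 gave a difference from uninjected caps of 3.57 for elavl4.L, and leaving out replicate 2 gave 1.39. For irx4.L the same omissions gave 4.14 and 3.58.

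The measured relatives of these genes differed less between Sox17beta and uninjected caps than the 4 genes did. The 4 genes were chosen for being high in Sox17beta caps, so that contrast was set by the choice. Besides irx4.L, 4 Iroquois genes were measured, and 0 passed the test in Sox17beta caps with or without the replicate number as a block (limma, Benjamini-Hochberg over all probe sets). Over all probe sets 0.0194% passed without and 5.45% with the block, so a count of 0 among 4 is near the background. The neural patterning gene irx1.L read 7.56 and 7.97 in Sox17beta caps and 8.14 and 8.68 in uninjected caps, a difference of -0.65 (adjusted p = 0.166 with the block). The differences were -0.31 for irx2.L, 0.35 for irx3.L and 0.13 for irx5.L. Both irx3.L and irx5.L were below the highest absent control on every array, so a difference in them was hardly measurable. Both irx4 and dmrta2 have an L and an S copy in the reference gene table, and 1 copy of each was measured under its own name.

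Among the other ELAV genes, elavl3.L, a pan-neuronal RNA-binding protein gene, moved opposite to elavl4.L. It read 6.14 and 5.52 in Sox17beta caps, 6.07 and 5.68 in Mixer caps, and 7.05 and 6.51 in uninjected caps. In replicate 1 and in replicate 2 both injected groups were below the uninjected array of the same number. It fell by 0.95 ± 0.11 (SE with the block) in Sox17beta caps, with an adjusted p of 0.641 without and 0.00672 with the block, and by 0.91 in Mixer caps (0.0224 with the block). Both Sox17beta values of elavl3.L were below the highest absent control of their arrays. The ubiquitous elavl1.S differed by 0.03 and elavl2-b by -0.18 in Sox17beta caps, and neither passed. On every array elavl2-b was below the highest absent control.

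Of 11 other crystallin probe sets, which stand for 8 genes, 0 passed in Sox17beta caps with or without the block, near the background of 0.0194% and 5.45%. On every array 10 of the 11 were below the highest absent control, so a difference in them was hardly measurable. The median absent control itself read 4.06 and 3.85 in Sox17beta caps and 3.725 and 3.82 in uninjected caps. Differences of the 11 crystallin probe sets ran from 0.11 to 0.30, with a median of 0.19 beside 0.04 over all probe sets. The largest was that of the beta-crystallin gene crybb2.L, which read 5.16 and 5.09 in Sox17beta caps and 4.79 and 4.86 in uninjected caps (adjusted p = 0.205 with the block). The alpha-crystallin gene cryaa.S, a chaperone of the lens, differed by 0.21, and the gamma-crystallin genes cryga.4.L and crygdl.30.L by 0.20 and 0.19. In Mixer caps the 11 differences lay between 0 and 0.16.

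**Figure D2:**
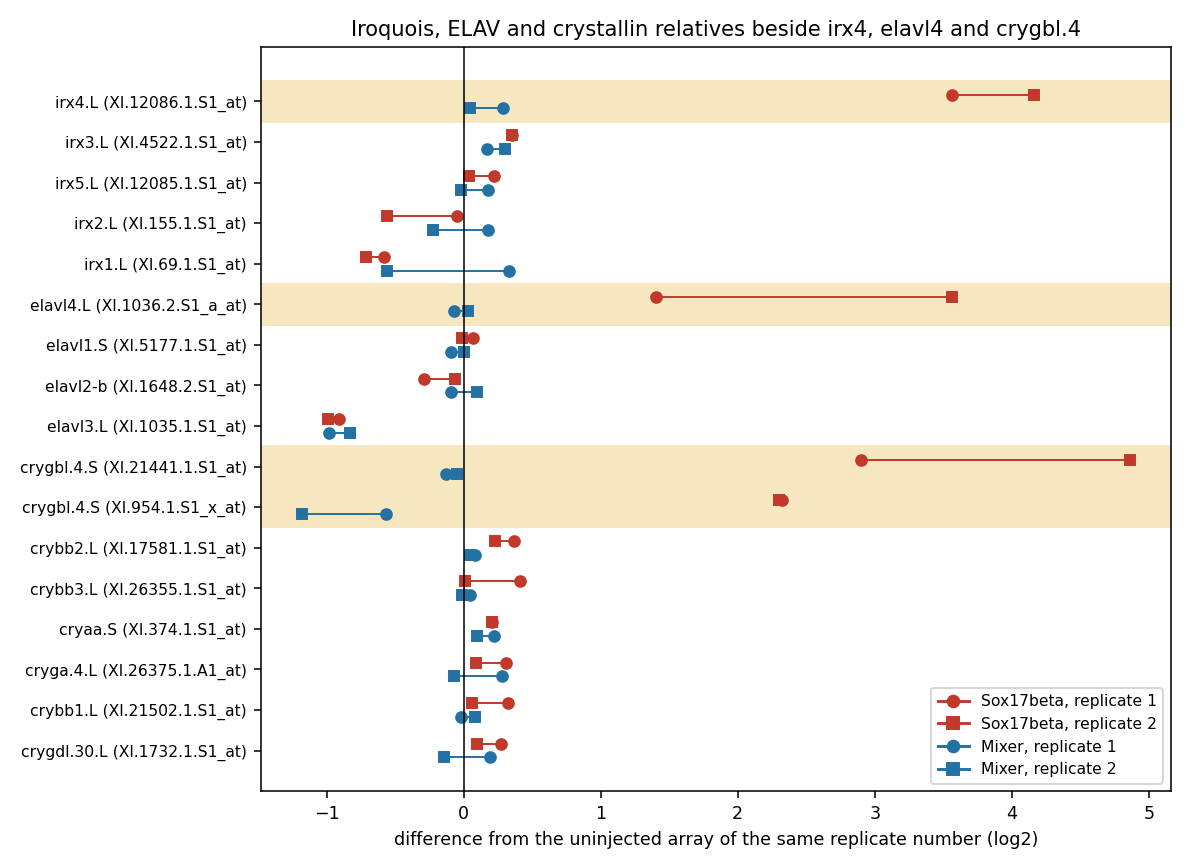
Differences from the uninjected array of the same replicate number (log2, horizontal axis) for Sox17beta (red) and Mixer caps (blue), with circles for replicate 1 and squares for replicate 2. Shaded rows are the chosen genes irx4.L, elavl4.L and crygbl.4.S, and the other rows are the measured Iroquois and ELAV relatives and the 6 crystallin probe sets with the largest differences. The relatives shown stay between -0.99 and 0.41 in Sox17beta caps, and elavl3.L is below 0 in both injected groups and both replicates.

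Wider lists of neural and placode genes were mixed in direction. No DMRT probe set other than that of dmrta2.S was tested. Over the other 9 lists, 224 probe sets other than the 5 were tested. In Sox17beta against uninjected caps without the block, 0.0194% of all probe sets were called and 969 of 15491 had an unadjusted p under 0.05. Of the 224, 0 passed and 65 had such a p. With the block 10 rose and 47 fell, against a background of 5.45% of all probe sets called, 1.88% higher and 3.56% lower. In Mixer against uninjected caps without the block, 0.0387% of all probe sets were called and 445 of 15491 had an unadjusted p under 0.05. Of the 224, 0 passed and 36 had such a p. With the block 5 rose and 14 fell, where 1.31% of all probe sets were called, 0.536% higher and 0.775% lower. Between Sox17beta and Mixer caps without the block, 0.0581% of all probe sets were called (0.0258% higher, 0.0323% lower). An unadjusted p under 0.05 was found for 615 of 15491. Of the 224, 0 passed and 52 had such a p. With the block 6 were higher and 19 lower in Sox17beta caps, against 1.56% of all probe sets called, 0.555% higher and 1.0% lower. The blocked calls did not outlast the loss of most single arrays. The 37 named probe sets called with it all kept the sign of their difference when any single array was left out. They had been named by these same calls, as relatives or by likeness to the 4 genes, so their signs are a description.

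Of 42 probe sets for early neural plate regulators, 4 rose and 5 fell in Sox17beta caps with the block, with a median difference of 0.01. Of the 4 that rose, 3 read the anterior homeobox gene otx2. The probe set of otx2.S read 8.02 and 9.46 in Sox17beta caps, 6.57 and 6.59 in Mixer caps, and 6.36 and 6.46 in uninjected caps, a rise of 2.33 (adjusted p = 0.281 without and 0.00996 with the block). It was also higher in Sox17beta than in Mixer caps (0.0293 with the block). The otx2.L probe set with the larger difference rose in both injected groups, by 3.13 with Sox17beta and 2.06 with Mixer (0.00297 and 0.0248 with the block). The other otx2.L probe set rose by 2.455 with Sox17beta (0.00712) but did not pass with Mixer (1.18, 0.147 with the block). It was above the highest absent control on the Sox17beta and Mixer arrays. The zinc-finger gene zic5.S, which acts in neural plate and crest, rose by 0.97 (0.00712 with the block, 0.183 without). It was above its level in Mixer caps (0.0108 with the block, 0.263 without). It exceeded the highest absent control only in Sox17beta replicate 2, as did the otx2.L probe set with the larger difference.

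The SoxB1 gene sox3.S, a marker of neural progenitors, went the other way. It read 9.22 and 8.46 in Sox17beta caps, 10.86 and 9.90 in Mixer caps, and 10.22 and 9.68 in uninjected caps, so that both Sox17beta values were below all others. It fell by 1.11 (adjusted p = 0.804 without and 0.00666 with the block) and was lower than in Mixer caps (0.0051 with the block). The other copy sox3.L differed by -0.56 (0.0772 with the block) and was not called against Mixer caps (0.42). The zinc-finger gene sall1.L fell by 0.81 and 0.63 in 2 of its 3 probe sets, and the remaining one differed by -0.02 (adjusted p = 0.961 with the block). In Mixer caps the same 2 probe sets fell by 1.185 and 1.12 (adjusted p = 0.00823 and 0.0179 with the block). Named after their values were seen, hesx1.L fell by 0.69 and sox11.S fell by 0.63. In Mixer caps hesx1.L fell by 0.68 (adjusted p = 0.0422 with the block), and sox11.S differed by -0.04. The values of hesx1.L were below the highest absent control on every array, and hesx1.S differed by -0.09 (adjusted p = 0.779 with the block). The blocked Sox17beta calls in this list did not outlast the loss of most single arrays.

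Of 54 probe sets for proneural and neuronal genes, 1 rose and 6 fell with the block, with a median of 0.09. The riser was ebf2.S, a helix-loop-helix factor of differentiating neurons, which read 6.03 and 7.39 in Sox17beta caps, 5.1 and 5.13 in Mixer caps, and 4.9 and 5.22 in uninjected caps. Its rise was 1.65 (adjusted p = 0.496 without and 0.0221 with the block), and like elavl4.L it was higher in replicate 2. Only its Sox17beta replicate 2 value exceeded the highest absent control, and the other copy ebf2.L differed by 0.26 (0.292 with the block). With the block, the neuronal beta-tubulin gene tubb2b.S fell by 1.12 (0.0195), though below the highest absent control on every array. The intermediate filament gene prph.L fell by 1.49 (0.0288 with the block) and the synaptic vesicle gene syt1.L fell by 0.96 (0.00741 with the block). Both exceeded the highest absent control only in uninjected replicate 2. The other copy prph.S differed by -0.095 (0.836 with the block). The repressor gene hes4.L fell by 1.87 (0.00384 with the block). The remaining falls were of hes4.S probe sets, so the 6 falls stand for fewer genes. The hes4 falls are those of a repressor gene and not of a neuronal marker. Other hes4.S probe sets did not pass. In Mixer caps 0 probe sets of this list rose and 4 fell.

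Of 49 probe sets for placode, eye field and lens regulators, 6 rose and 4 fell with the block, with a median of 0.17. The lists overlap, as the otx2 probe sets are also in the neural plate list and dlx5.L and dlx6.S also in the epidermal list. Those that rose were the 3 of otx2 and, named after their values were seen, 2 of the 3 of the eye field and forebrain gene lhx2.L (0.85 and 0.61, both below the highest absent control on every array) and six3.L (0.80). The remaining lhx2.L probe set differed by 0.06 (adjusted p = 0.853 with the block). The probe sets of six3.S differed by 0.17 and 0.25 (0.496 and 0.292 with the block). Both probe sets of the LIM homeobox gene lhx5.S fell. The one with the larger difference read 6.59 and 5.59 in Sox17beta caps, 7.52 and 7.26 in Mixer caps, and 8.42 and 8.42 in uninjected caps, and fell by 2.33 (adjusted p = 0.00404 with the block). The border homeobox gene dlx5.L fell by 1.66, and dlx6.S, named after its values were seen, fell by 1.24. The blocked Sox17beta calls in this list likewise did not outlast the loss of most single arrays.

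**Figure D3:**
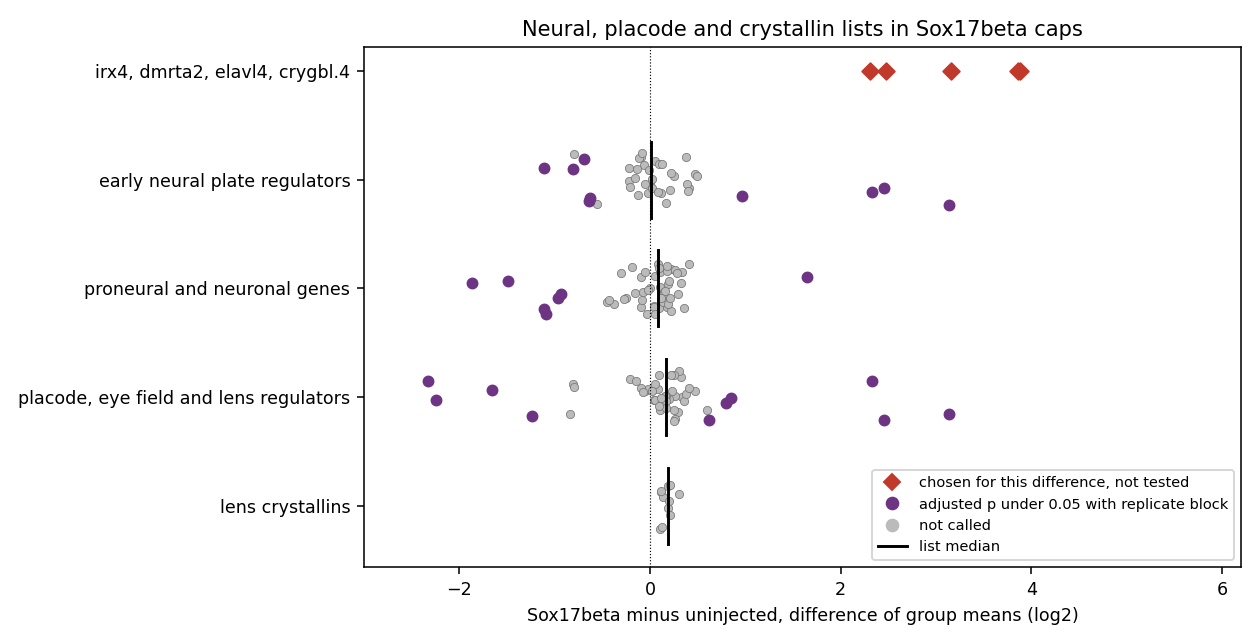
Difference between the Sox17beta and uninjected group means (log2, horizontal axis) for the 5 chosen probe sets (red diamonds) and for each probe set of 4 lists. Purple points passed an adjusted p under 0.05 with the replicate block, grey points did not, and black bars are list medians. Called points lie on both sides of 0 in the neural plate, neuronal and placode lists, and none of the crystallins is called.

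The epidermal list moved furthest. Of 31 epidermal probe sets 20 fell and 0 rose in Sox17beta caps with the block, with a median of -1.66. Over all probe sets 3.56% fell and 1.88% rose with the block. In Mixer caps 1 epidermal probe set rose and 2 fell with it. Of 34 neural crest probe sets 1 rose in Sox17beta caps with the block (2.94%, near the background of 1.88%). A further 10 fell and 23 did not pass, with a median of -0.13. In Mixer caps 2 rose and 2 fell with the block. The crest and stem cell factor foxd3.S rose by 1.49 in Sox17beta caps (adjusted p = 0.00712 with the block and 0.226 without). It was also above Mixer caps (0.0182 with the block and 0.505 without). It read 6.0 and 5.27 in Sox17beta caps, below the highest absent control of both arrays. Among 12 probe sets for BMP antagonists and feedback inhibitors, 1 rose in Sox17beta caps with the block, 4 fell and 7 did not pass. Their median was 0.06. The one that rose was fst.L, the activin and BMP antagonist follistatin, by 1.43 (adjusted p = 0.00352, blocked). It read 6.17 and 6.57 in Sox17beta caps, 4.9 and 4.91 in Mixer caps, and 4.87 and 5.01 in uninjected caps. Only the Sox17beta replicate 2 value exceeded the highest absent control of its array. The falls were those of both szl copies, inhibitors of chordin-cleaving proteases, and of both bambi copies, decoy BMP receptors.

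Defining markers of the cell types did not follow the 4 genes. Of 8 neuronal marker probe sets 0 rose and 2 fell in Sox17beta caps with the block, and 7 were below the highest absent control on every array. Their mean was 4.54 and 4.33 in Sox17beta caps, 4.44 and 4.47 in Mixer caps, and 4.56 and 4.55 in uninjected caps. All 6 lens marker probe sets, among them cryaa.S, cryba1.L and foxe3.L, were below that control on every array, and 0 of them passed. Of 8 neural plate marker probe sets 1 fell. The name neural and lens genes thus says what the 4 genes are known for, and not that these markers were high in the caps. All 14 epidermal marker probe sets were above that control in uninjected caps, and all 14 fell with the block in Sox17beta caps. Their mean was 7.35 and 6.87 in Sox17beta caps, 7.77 and 8.86 in Mixer caps, and 8.95 and 9.80 in uninjected caps. With the block, 3 of 12 endoderm marker probe sets rose in Sox17beta caps and 5 in Mixer caps, against 0 and 2 without it. Of 6 mesoderm ones wnt8a.L rose in both with the block (adjusted p = 0.0187 and 0.014) and in neither without it (0.333 and 0.483). Over all probe sets 1.88% rose and 3.56% fell in Sox17beta caps with the block, and 0.536% rose in Mixer caps. Without it 0.0194% rose in Sox17beta caps and 0.0387% in Mixer caps. None of the neuronal, neural plate, lens or epidermal markers passed without the block. The part these changes had in the values of the 4 genes was not tested.

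The named genes with profiles closest to the 4 recurred from one to the next. The 4 genes were chosen for a shared pattern over the groups, so shared neighbours follow at least in part from that choice. Likeness was the root mean square distance between log2 profiles over the 6 arrays, each centred on its own mean, among 9189 named probe sets. The closest to irx4.L were gsc.S, the organizer homeobox gene, and eomes.L, a T-box gene, both at 0.52, then otx2.S (0.77) and elf2.L (0.89), an ETS factor gene. For dmrta2.S they were eomes.L (0.27), otx2.S (0.38), gsc.S (0.40) and elf2.L (0.49). For elavl4.L they were otx2.S (0.26), slc26a4l.L (0.44), the bZIP factor gene cebpb.L (0.45) and slc32a1.S (0.47), which encodes the vesicular transporter of inhibitory neurons. The first crygbl.4.S probe set was closest to eomes.L (0.78), otx2.S (0.82), gsc.S (0.87) and slc32a1.S (1.02), and the second to eomes.L (0.46), gsc.S (0.53), otx2.S (0.57) and slc32a1.S (0.59).

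These neighbours, found by their likeness, are described without a test. The gene slc32a1.S read 5.06 and 5.97 in Sox17beta caps, 3.66 and 3.70 in Mixer caps, and 3.51 and 3.70 in uninjected caps, below the highest absent control on every array. The gene eomes.L read 7.93 and 8.21 in Sox17beta caps, 5.55 and 5.32 in Mixer caps, and 5.41 and 5.23 in uninjected caps. The profile of cebpb.L had the uneven Sox17beta pair seen in elavl4.L, at 4.72 and 6.54 in Sox17beta caps, 4.2 and 3.97 in Mixer caps, and 4.0 and 3.97 in uninjected caps. Among the 4 genes themselves, irx4.L and dmrta2.S were 0.43 apart, dmrta2.S and elavl4.L 0.46, irx4.L and the first crygbl.4.S probe set 0.45, and the pair for crygbl.4.S 0.78, the largest of the 10 distances.

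**Figure D4:**
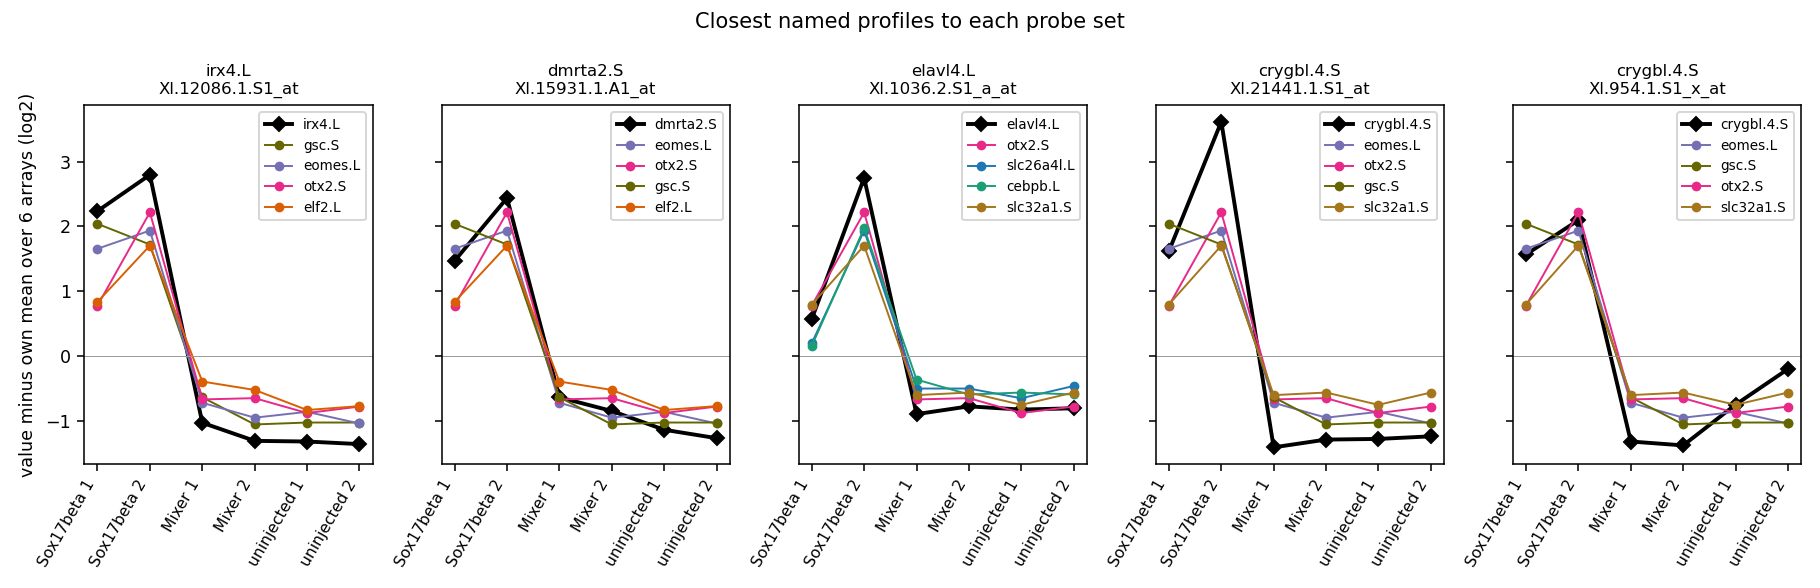
Log2 values minus the probe set's own mean over the 6 arrays (vertical axis) for each of the 5 probe sets (black diamonds) and its 4 closest named genes (coloured circles), by array. All profiles are high on the Sox17beta arrays, and the Sox17beta arrays are far apart for elavl4.L, cebpb.L and slc26a4l.L.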

How the data were processed

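The values were the authors' deposited log2 expression values per probe set, made with RMA per the submitters' processing notes, whose version is not given in the sources used here. RMA subtracts background, brings arrays to a common distribution and summarises probes, so differences near background are understated. No further normalization was applied, and 0 columns belonged to another series. Of 15611 probe sets, 120 controls were left out. Platform annotation gave 9304 of the tested probe sets 1 symbol, 195 several and 5992 none, and those with several or none are unnamed. No probe set with several symbols named a member. No genome build is named, so no coordinates are given.

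Group means of all 6 arrays were compared in 1 fit with lmFit and eBayes (limma 3.58.1, R 4.3.3), two-sided, with Benjamini-Hochberg adjustment over all 15491 probe sets and a threshold of 0.05. The fit was tested on simulated data. Differences between replicates 1 and 2 of a group correlated at 0.732 to 0.867 between groups, so the replicate number was treated as pairing the arrays. The labels do not say what the number marks, and correlations from these same arrays cannot show that it pairs them. A fit with the number as a block (2 residual degrees of freedom, against 3) is given beside the fit without it. Adjusted p-values given alone for list genes are those of the blocked fit, and none of those probe sets passed without it. The members and lists were chosen with earlier results of these data known. Named genes were the relatives, the 6 largest differences among other crystallins, up to 6 called probe sets per list and 4 closest profiles per member. Bounds in folds set the Sox17beta mean against the higher of the dim value and the highest absent control on each array. They are given only where both Sox17beta values exceeded that control. The number of arrays limits the precision. Figures used matplotlib 3.10.9 in Python 3.11.15.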

Additional observations from a re-analysis of the deposited data

How the results depend on the processing

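The replicate block changed the counts most. Called probe sets were 3 without and 844 with it for Sox17beta over uninjected, 6 and 203 for Mixer over uninjected, and 9 and 241 for Sox17beta over Mixer, and called list members were 0 without it and 57, 19 and 25 with it. With the block and only probe sets above the 25th percentile of signal, chosen after seeing the data, the counts were 749, 178 and 197, and 52, 17 and 19 for list members. Without the block, quantile normalization gave 5 calls for Sox17beta over uninjected, and an intensity trend with robust spread gave 13 for that comparison and 14 for Sox17beta over Mixer. Leaving out single arrays gave 0 to 5 calls for Sox17beta over uninjected (0 to 582 with the block), 0 to 1 for Mixer over uninjected (0 to 2), and 1 for Sox17beta over Mixer (0 to 136). Called list members were 0 in each without the block, and with it 0 to 48, 0, and 0 to 22. An omission leaves 1 residual degree of freedom with the block. Over the omissions, the Sox17beta over uninjected difference ran from 3.58 to 4.14 for irx4.L, 2.67 to 3.65 for dmrta2.S, 1.39 to 3.57 for elavl4.L, 2.88 to 4.88 for the first crygbl.4.S probe set and 2.03 to 2.59 for the second. Small differences changed sign for elavl1.S (-0.24 to 0.29, and -0.0325 without Sox17beta replicate 1 with the block) and elavl2-b (-0.44 to 0.09), and the cause was not tested.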
